A study of Mus musculus with 47 samples.

Results

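The genes described here carry signals of the interleukin-6 (IL-6) cytokine family to the transcription factor STAT3 and turn them off again. They are the receptor chains Osmr, Lifr and Il6st, the kinases Jak1 and Jak2, Stat3, and the feedback inhibitors Socs3 and Socs2. These 8 genes were chosen by symbol from the 14221 genes of a bulk RNA-seq count table of the mouse hypothalamus. Earlier results of these data were known at that choice, so their counts of calls are no independent test against all genes. All 8 were found, and none was lost to a filter on low counts.

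The study asked how the hypothalamus responds over time to fibroblast growth factor 1 (FGF1), given once into the brain ventricle (icv), and it sequenced 1 strand-specific mRNA library from each of 47 mice. All were male ob/ob mice and received either 3 µg of FGF1 or vehicle. The labels give an age of 11 weeks for the mice of every day, while the study's methods give a younger range for the bulk RNA-seq mice, so age at collection is uncertain. Per the study's methods the protein was recombinant human FGF1 in phosphate-buffered saline. Separate mice were used on Day 1 (10 FGF1, 4 vehicle), Day 5 (9 FGF1, 7 vehicle labelled non-diabetic, 7 vehicle labelled diabetic) and Day 42 (5 FGF1, 5 vehicle). The vehicle mice are labelled as pair-fed to the FGF1 mice, that is, given the amount of food that FGF1 mice ate, and on Days 1 and 42 they are labelled non-diabetic. The FGF1 mice carry no label of diabetic state, while the study describes its ob/ob mice as diabetic. Any difference in diabetic state between FGF1 mice and vehicle mice labelled non-diabetic cannot be told apart from treatment. Every group shares the ob/ob genotype, in which no functional leptin is made, so leptin, itself a STAT3-activating hormone, was absent as a ligand in FGF1 and vehicle mice alike. No untreated or lean mice are among the groups.

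In this pathway a ligand such as oncostatin M, leukaemia inhibitory factor or IL-6 joins its own receptor chain to the shared chain gp130, encoded by Il6st. Janus kinases bound to the receptor then phosphorylate STAT3, which enters the nucleus and switches on target genes, Socs3 among them. SOCS3 binds the receptor and the kinases and shuts the signal off, and in leptin-responsive neurons the same JAK2, STAT3 and SOCS3 relay leptin's signal. In the brain, STAT3 is also known as a driver of the reactive state of astrocytes.

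Total counts per library were 1243280 to 47082403 (median 33965100) in FGF1 mice and 37281555 to 42887789 in vehicle mice on Day 1, 7579695 to 30009258 on Day 5, and 19416026 to 43934003 on Day 42. The smallest library, FGF1 Day 1 replicate 1, held only 58 counts each of Osmr and Socs3, 55 of Lifr and 13 of Socs2. Each day had its own preparation code, so a level that differs between days differs by day and preparation at once, and these cannot be told apart. FGF1 and vehicle libraries of the same day were prepared under the same code. Of 12 hypothalamic neuron markers, 11 are in the table, while Gh and Prl, which define the neighbouring pituitary, are not. The pituitary hormone subunit genes Cga and Tshb summed to 20.3 normalized counts in FGF1 Day 42 replicate 1, against at most 5.04 in the other 4 mice of its group, and without it 0 of the 8 genes were called on Day 42, as with it. In FGF1 Day 1 replicate 10 they summed to 19.5, against at most 12.8 in the other 9 mice of its group, and no fit was made without it. In vehicle non-diabetic Day 5 replicate 2 the summed level of 8 microglia markers was 381 normalized counts, against 240 to 261 in the other 6 mice of its group, and results that touch this group are given without it where they change. Normalized counts are CPM, that is, counts scaled to a common library size, with TMM factors applied. A gene was called with an edgeR quasi-likelihood adjusted p (Benjamini-Hochberg over all genes) under 0.05 together with a log2 fold change above 0.5 or below -0.5.

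To show what lies before the start of the most induced inhibitor and of the transcription factor itself, the 250 bases before the RefSeq start of each gene were searched for TTCNNNGAA, the palindromic core that STAT proteins are known to bind, which reads the same on both strands. RefSeq promoter windows (GRCm38.p6) existed for 7 of the 8 genes, not for Socs2. The Socs3 window held 1 match, from 154 to 146 bases before the start, at chr11:117969512-117969520. None of the windows of Osmr, Lifr, Il6st, Jak1, Jak2 and Stat3 held one. The Osmr window lay wholly inside annotated exons, so sequence before the first annotated exon of Osmr was not searched. Over all 32851 promoter windows 7.02% held the motif, and 5.81% of the 14309 windows of genes in the table. A match is a description of these letters and not a measured binding site. The stretches outside annotated exons are printed for Socs3, chr11:117969452-117969616, and Stat3, chr11:100939541-100939790, both on the minus strand, 5′ to 3′, with capitals marking the motif.
Socs3: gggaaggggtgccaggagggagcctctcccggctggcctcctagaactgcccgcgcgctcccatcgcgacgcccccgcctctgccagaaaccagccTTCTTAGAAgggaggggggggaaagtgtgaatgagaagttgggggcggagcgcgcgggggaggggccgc
Stat3: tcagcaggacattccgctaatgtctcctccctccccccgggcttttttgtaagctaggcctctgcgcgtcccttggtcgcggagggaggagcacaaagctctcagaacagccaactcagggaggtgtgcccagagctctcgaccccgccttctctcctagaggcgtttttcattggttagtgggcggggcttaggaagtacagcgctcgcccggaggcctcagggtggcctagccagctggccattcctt

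On Day 1 after FGF1, Socs3, Osmr and Stat3 were several-fold higher than in vehicle mice, and Il6st was higher by less than 1.5-fold. Socs2 passed the thresholds narrowly, Jak1 was raised below the fold threshold, and Jak2 and Lifr did not pass the test. Of the 8 genes 5 were called higher and 0 lower, where 11.5% of all genes were called higher and 8.05% lower. Their median log2 fold change was 0.53, against 0.01 over all genes. In Osmr, Il6st, Stat3 and Socs3 every FGF1 mouse lay above every vehicle mouse, a separation that 7.56% of all genes showed in this direction. In bulk tissue, fewer or more cells of a type and less or more RNA per cell cannot be told apart, here and in all that follows.

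**Figure D1:**
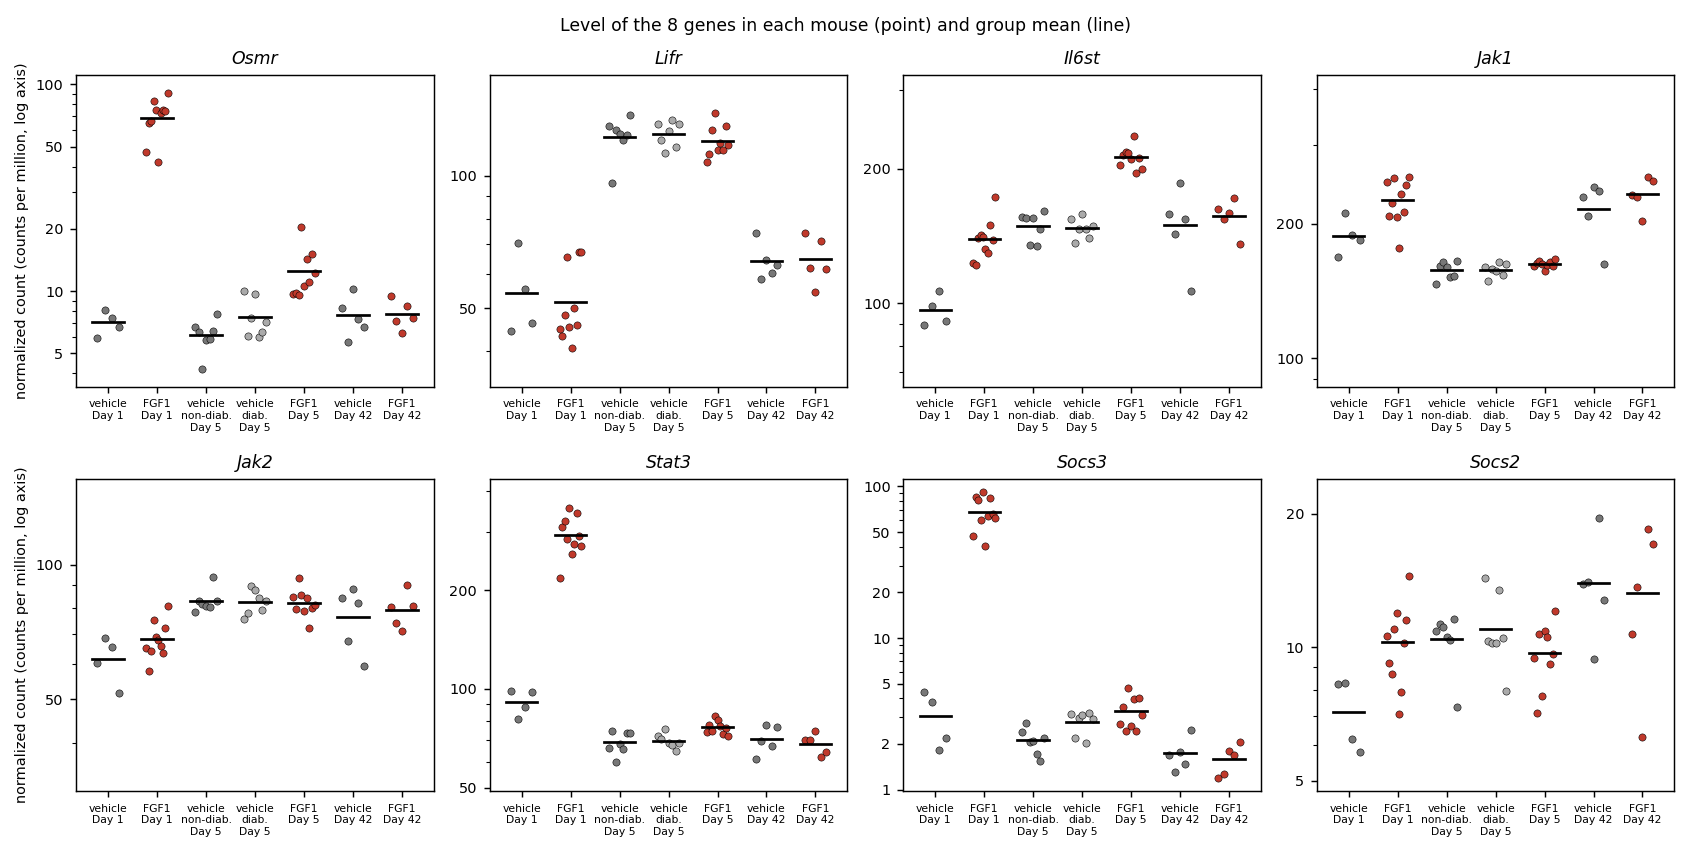
Normalized counts (CPM, log axis) of the 8 genes in each of 47 mice, by group; points are mice, red for FGF1 and grey for vehicle, and lines are group means. The FGF1 mice of Day 1 stand clear of all other groups for Osmr, Stat3 and Socs3, while Il6st is separated on Days 1 and 5.

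Osmr, at chr15:6813577-6874969 on the minus strand (GRCm38), encodes the ligand-specific chain of the oncostatin M receptor. The 4 vehicle mice of Day 1 had 5.96, 8.13, 7.42 and 6.73 normalized counts of Osmr. The 10 FGF1 mice ran from 42.3 to 91.0 with a median of 73.2. Even the lowest FGF1 mouse lay far above the highest vehicle mouse. The edgeR log2 fold change was 3.31 (SE 0.19, adjusted p = 7.46e-19), that is 9.89-fold with a 95% interval of 7.55 to 12.96, and the two-sided exact permutation p of 0.000999 is the smallest that 10 against 4 mice allow (0.00571 adjusted by Benjamini-Hochberg over 40 such tests).

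Lifr, at chr15:7090614-7197489 on the plus strand, encodes the receptor chain for leukaemia inhibitory factor, which also pairs with gp130 and can itself serve oncostatin M. Vehicle mice of Day 1 had 44.4 to 70.4 normalized counts of Lifr and FGF1 mice 40.7 to 67.3. The ranges overlapped almost wholly. The log2 fold change was -0.05, with a 95% interval of -0.27 to 0.17 (edgeR adjusted p = 0.738), so a change beyond 1.13-fold up or 0.827-fold down lies outside the interval.

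The ratio of these receptor chains, given with no test, did not overlap between the groups of Day 1. Per kb of exon, Osmr stood at 0.118 ± 0.0111 (SD, n = 4) of the level of Lifr in vehicle mice, and at 1.19 ± 0.200 (n = 10) in FGF1 mice. The lowest ratio in FGF1 mice was 0.925 and the highest in vehicle mice 0.129. On Day 5 the ratio was 0.0920 ± 0.0194 (n = 9) after FGF1, against 0.0451 ± 0.00882 in non-diabetic and 0.0537 ± 0.0114 in diabetic vehicle mice (n = 7 each). On Day 42 it averaged 0.106 in both groups.

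**Figure D2:**
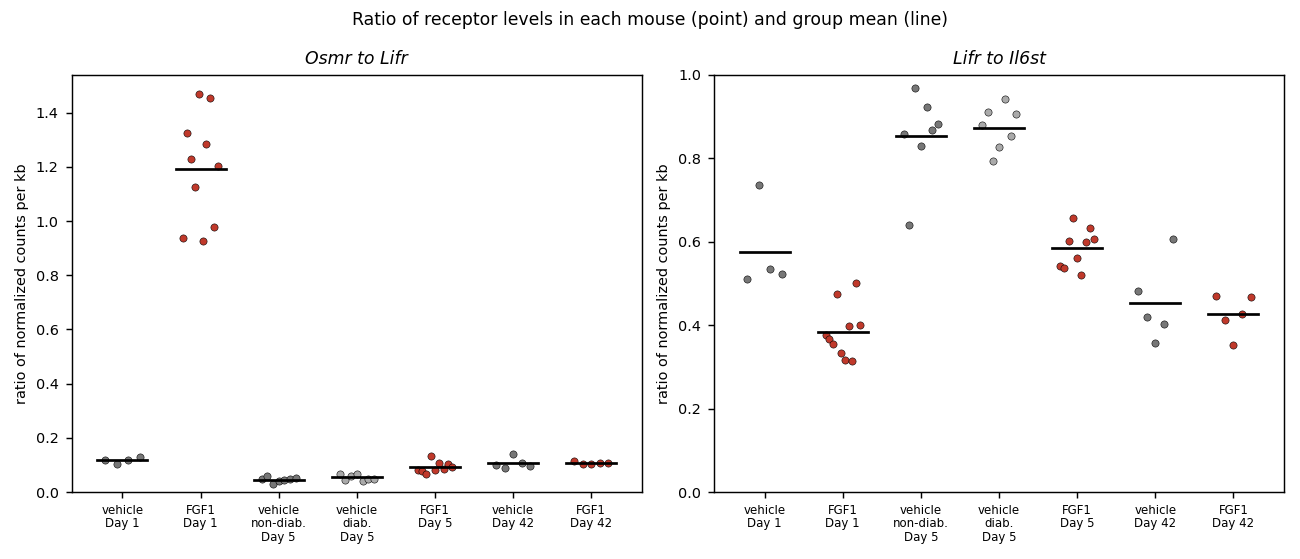
Ratios of normalized counts per kb of exon, Osmr to Lifr (left) and Lifr to Il6st (right), in each mouse by group; points are mice and lines group means. Osmr came near or above the level of Lifr in FGF1 mice of Day 1 only (0.925 to 1.47). The mean ratio of Lifr to Il6st was lower in FGF1 than in vehicle mice on Days 1 and 5. On Day 5 its range in FGF1 mice overlapped with that in non-diabetic vehicle mice.

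Il6st, at chr13:112464070-112510086 on the plus strand, encodes gp130, the signalling chain shared by the whole family. Its normalized counts were 89.4, 98.7, 107 and 91.0 in the 4 vehicle mice of Day 1, and 122 to 173 with a median of 139 in the 10 FGF1 mice. The groups did not overlap, with a log2 fold change of 0.53 (SE 0.08, edgeR adjusted p = 1.16e-06, exact permutation p = 0.000999, the smallest possible). This value sits near the fold threshold: it was 0.49 under DESeq2 or with its size factors and 0.498 without vehicle replicate 1, each with an adjusted p under 0.05 but a fold below the threshold.

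Jak1 and Jak2 encode the kinases that gp130 and the leptin receptor use. Jak1 (chr4:101152367-101265282, minus strand) rose by 0.26 on the log2 scale (SE 0.07, edgeR adjusted p = 0.00401), from 188 ± 17.98 normalized counts in vehicle mice (n = 4) to 226 ± 25.1 in FGF1 mice (n = 10), below the fold threshold and with overlapping ranges. The exact permutation p for Jak1 was 0.02 (0.0599 adjusted by Benjamini-Hochberg). Jak2 (chr19:29251828-29313080, plus strand) had 61.5 ± 7.36 and 68.2 ± 6.64 normalized counts, with a log2 difference of 0.15 and a 95% interval of -0.01 to 0.32 (edgeR adjusted p = 0.121). Exons of Jak1 share 4 bases with those of Raver2 on the other strand.

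Stat3 (chr11:100885098-100939540, minus strand) was the most abundant of the 3 strongly induced genes. Its normalized counts were 98.6, 81.0, 88.1 and 97.8 in the vehicle mice and 218 to 357, with a median of 289, in the FGF1 mice of Day 1. The lowest value after FGF1, that of the smallest library, was still well above the highest vehicle value. The change on the log2 scale was 1.69 (SE 0.08, edgeR adjusted p = 2.57e-21), or 3.23-fold with an interval of 2.87 to 3.63. Its last exon shares 72 bases with Stat5a on the other strand, and Stat5a itself was at 6.13 ± 1.25 normalized counts after FGF1 and 4.75 ± 1.20 after vehicle.

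Socs3 (chr11:117966079-117970047, minus strand) showed the largest fold of the 8 genes and ranked 8 of 14221 genes by log2 fold change on Day 1. The 4 vehicle mice had 4.40, 3.75, 1.84 and 2.19 normalized counts of Socs3, from 79 to 160 raw counts. The 10 FGF1 mice ran from 40.5 to 91.7, with a median of 64.7. No FGF1 mouse came near the vehicle range. On the log2 scale the change was 4.50 (SE 0.22, edgeR adjusted p = 1.06e-21), 22.7-fold with an interval of 16.7 to 30.8, and the exact permutation p was again the smallest possible, 0.000999.

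Socs2 (chr10:95385362-95417180, minus strand), a feedback inhibitor best known for restraining growth hormone signalling through STAT5, moved far less. Vehicle mice had 8.27, 8.30, 6.21 and 5.80 normalized counts of Socs2, and FGF1 mice 7.05 to 14.5 with a median of 10.4. Of the 10 FGF1 mice, 8 lay above all vehicle mice. The log2 fold change of 0.52 (SE 0.19) had an edgeR adjusted p of 0.0225 and an exact permutation p of 0.015 (0.05 adjusted over the 40 tests). The call was lost with limma-voom (adjusted p = 0.0994), without vehicle replicate 3 or 4 (adjusted p = 0.0771 and 0.0877), and under DESeq2 (log2 fold change 0.47). Per kb, Socs3 stood at 1.37 ± 0.333 times the level of Socs2 in vehicle mice (n = 4) and at 22.5 ± 6.27 times in FGF1 mice (n = 10).

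**Figure D3:**
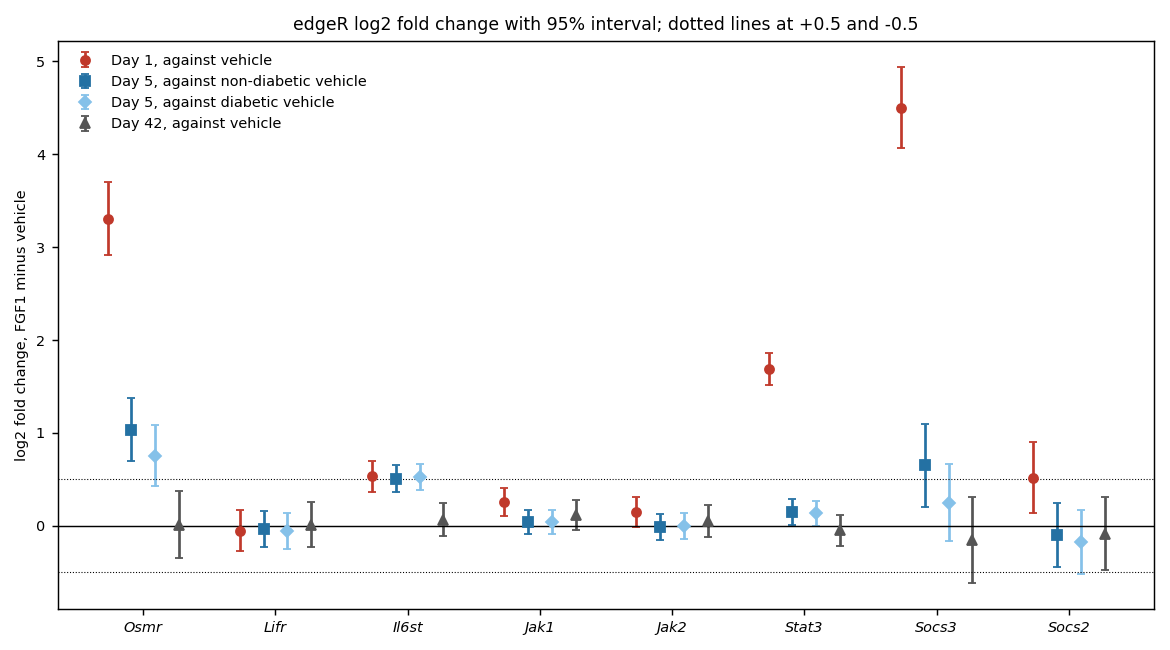
edgeR log2 fold change of FGF1 against vehicle for the 8 genes on each day, with 95% intervals; dotted lines mark the fold threshold. Socs3 (4.50), Osmr (3.31) and Stat3 (1.69) lead on Day 1, Osmr and Il6st alone are called on Day 5, and the Day 42 intervals all include 0.

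On Day 5 only the receptor chains Osmr and Il6st were called. Both were higher after FGF1 than in the vehicle mice labelled non-diabetic, and none of the other 6 genes passed the thresholds. These 2 of 8 stand beside 1.31% of all genes called higher. Without the vehicle library with high microglia markers the same 2 genes were called.

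Osmr on Day 5 had 9.58 to 20.5 normalized counts with a median of 11.1 in FGF1 mice (n = 9), 4.23 to 7.76 with a median of 6.36 in non-diabetic vehicle mice (n = 7), and 6.003 to 10.1 with a median of 7.07 in diabetic vehicle mice (n = 7). All 9 FGF1 mice lay above all non-diabetic vehicle mice, as did those for Il6st, where 2.38% of all genes were so separated. The log2 fold change was 1.03 (SE 0.17, edgeR adjusted p = 3.06e-05) against the non-diabetic and 0.76 (SE 0.16, adjusted p = 0.0011) against the diabetic vehicle mice, where 6 of 9 FGF1 mice exceeded all of the controls. Both comparisons use the same FGF1 mice, so they are not independent. Exact permutation p-values were 8.74e-05, the smallest possible, and 0.00122.

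Il6st on Day 5 ran from 196 to 236 normalized counts with a median of 211 in FGF1 mice, from 134 to 161 with a median of 155 in non-diabetic vehicle mice, and from 137 to 158 with a median of 147 in diabetic vehicle mice. No FGF1 mouse overlapped with either vehicle group. The log2 fold change was 0.51 (SE 0.07, edgeR adjusted p = 2.00e-06) against the non-diabetic group and 0.53 (SE 0.07, adjusted p = 7.54e-07) against the diabetic group, in which 2.36% of all genes were called higher and 3.63% were separated. The ratio of Lifr to Il6st per kb, given here with no test, averaged 0.576 ± 0.106 in vehicle and 0.383 ± 0.0629 in FGF1 mice of Day 1. On Day 5 it averaged 0.852 ± 0.104 in non-diabetic vehicle, 0.873 ± 0.0519 in diabetic vehicle and 0.584 ± 0.0465 in FGF1 mice. The highest FGF1 mouse of Day 5, at 0.657, exceeded the lowest non-diabetic vehicle mouse, at 0.640.

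Socs3 on Day 5 ran from 2.44 to 4.71 normalized counts (median 3.10) after FGF1, 1.55 to 2.74 (median 2.09) in non-diabetic and 2.03 to 3.22 (median 2.98) in diabetic vehicle mice, resting on 13 to 125 raw counts a library. Of the 9 FGF1 mice, 5 lay above all non-diabetic vehicle mice. The log2 difference from the non-diabetic group was 0.65 with an interval of 0.20 to 1.10 and missed the threshold in the fit of all days (edgeR adjusted p = 0.0844), passed it when Day 5 was fitted alone (adjusted p = 0.00382) and with limma-voom (adjusted p = 0.0185), and had an exact permutation p of 0.00201 (0.00804 adjusted). Against the diabetic group it was 0.25 with an interval of -0.16 to 0.67 (edgeR adjusted p = 0.537). Whether Socs3 differed on Day 5 thus depends on the model and on the control group. The deposited protocol counts 7 vehicle mice on Day 5, whereas the sample labels list 7 of each kind, and the protocol does not say which were meant.

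Stat3 on Day 5 lay at 72.0 to 82.6 normalized counts after FGF1 (median 76.1), 59.9 to 74.4 in non-diabetic and 64.9 to 75.3 in diabetic vehicle mice. All 9 FGF1 mice lay above the median of either vehicle group, but the log2 differences were only 0.15 and 0.14 (edgeR adjusted p = 0.236 and 0.237). Exact permutation p-values of 0.00323 and 0.00175 (0.0118 and 0.00777 adjusted) for the difference of means did pass. The ranges overlapped, and 5 of 9 FGF1 mice lay above all mice of either vehicle group. By edgeR the difference was 1.11-fold with an interval of 1.01 to 1.22 against the non-diabetic group. Socs2, Lifr, Jak1 and Jak2 differed from the non-diabetic group by -0.10 to 0.05 on the log2 scale, and the widest of their intervals, that of Socs2, ran from -0.44 to 0.25.

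The vehicle mice labelled diabetic and non-diabetic on Day 5 were compared with each other as well. None of the 8 genes was called, and edgeR called 0 genes in all (0.0%), with 193 genes at an unadjusted p under 0.05 and none of the 8 among them. Socs3 averaged 2.80 ± 0.483 normalized counts in diabetic and 2.11 ± 0.403 in non-diabetic vehicle mice (n = 7 each), a log2 difference of 0.40 with an interval of -0.09 to 0.89 (edgeR adjusted p = 1.00, exact permutation p = 0.021, 0.0599 adjusted).

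On Day 42 none of the 8 genes differed by the test, and edgeR called 0 of all genes (0.0%), with 776 at an unadjusted p under 0.05. The 5 vehicle mice had 8.27, 5.71, 10.3, 7.34 and 6.69 normalized counts of Osmr and the 5 FGF1 mice 9.43, 7.19, 6.28, 8.48 and 7.39. Socs3 was at 1.70, 1.30, 1.78, 1.48 and 2.48 in vehicle and at 1.20, 1.27, 1.79, 1.68 and 2.05 in FGF1 mice. The groups overlapped for every one of the 8 genes, as they did for all but 0.0914% of genes in the higher and 0.176% in the lower direction. The log2 differences ran from -0.15 (Socs3, interval -0.61 to 0.32) to 0.12 (Jak1, interval -0.04 to 0.27), and that of Stat3 was -0.05 with an interval of -0.21 to 0.12. The smallest exact permutation p that 5 against 5 mice allow is 0.00794, and the lowest observed was 0.341.

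The change of the FGF1 effect between days was tested as a difference of contrasts, with the non-diabetic vehicle mice as the Day 5 control. From Day 1 to Day 5 the effect fell by 3.85 on the log2 scale for Socs3 (SE 0.31, edgeR adjusted p = 7.97e-14), by 2.27 for Osmr (SE 0.24, adjusted p = 3.36e-10) and by 1.54 for Stat3 (SE 0.11, adjusted p = 5.91e-16). These 3 of 8 compare with 8.52% of all genes. For Il6st it moved by only -0.02, with an interval of -0.24 to 0.19 (adjusted p = 0.903), so its rise was of like size on both days within that interval.

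From Day 5 to Day 42 the effect on Osmr fell by 1.02 (SE 0.25, edgeR adjusted p = 0.025), a call that 0.485% of all genes shared in this direction. It did not hold with limma-voom (adjusted p = 0.0619), without the deep FGF1 libraries of Day 5 (0.0578), without FGF1 Day 42 replicate 5 (0.0518) or without vehicle Day 42 replicate 3 (0.0791). With diabetic vehicle as the Day 5 control the log2 difference was -0.74 and did not pass either (adjusted p = 0.120), whereas from Day 1 to Day 5 Socs2 then joined the 3 called genes (-0.69, adjusted p = 0.0351, against -0.62 and 0.0652 with the non-diabetic mice). The effect on Il6st fell by 0.44 (adjusted p = 0.0373), below the fold threshold. From Day 1 to Day 42 the effects fell by 4.65 for Socs3, 3.29 for Osmr and 1.74 for Stat3, where 9.81% of all genes were called lower, and by 0.46 for Il6st (adjusted p = 0.00314), again below the fold threshold.

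Ranked over the 7 groups, the levels of the genes took different orders. Osmr was highest in FGF1 Day 1 (69.1 ± 14.9 normalized counts), apart from all other groups. FGF1 Day 5 came next (12.5 ± 3.60), with a lowest mouse, at 9.58, above FGF1 Day 42 but below the highest mice of vehicle Day 42 (10.3) and diabetic vehicle Day 5 (10.1). The other 5 groups, from 7.75 ± 1.22 down to 6.17 ± 1.08, overlapped from neighbour to neighbour. Socs3 and Stat3 had FGF1 Day 1 alone apart (68.1 ± 17.0 and 294 ± 41.8), followed for Socs3 by groups at 3.28 ± 0.813 to 1.60 ± 0.359 and for Stat3 by vehicle Day 1 (91.4 ± 8.41) and then groups at 76.4 ± 3.59 to 68.2 ± 4.87. Il6st was highest in FGF1 Day 5 (212 ± 11.8) and lowest in vehicle Day 1 (96.5 ± 7.95), with 5 overlapping groups between them at 157 ± 13.6 to 139 ± 14.7. FGF1 Day 5 lay apart from every other group, while the highest mouse of vehicle Day 1 (107) reached the lowest of vehicle Day 42 (106).

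Lifr was split by day, at 120 to 125 in the 3 groups of Day 5, apart from 64.6 ± 7.997 in the next group, FGF1 Day 42. Jak1 averaged 234 ± 20.1 to 188 ± 17.98 in the groups of Days 1 and 42 and 163 ± 3.03 to 157 ± 7.06 in those of Day 5, with 1 vehicle mouse of Day 42, at 163, inside the range of Day 5. Jak2 and Socs2 had no neighbours apart. Since day and preparation coincide, these steps between days cannot be assigned to either.

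The other genes of the pathway were described from lists of ligands, receptors, kinases and STATs, inhibitors and STAT3 target genes. Of 27 listed ligands 5 are in the table, and Il6, Osm, Lif, Cntf, Il11 and Lep are not. Absence from the table, here and in the other lists, does not show that a gene was silent or unchanged. None of the 5 rose and 1 fell on Day 1, where 11.5% of all genes were called higher and 8.05% lower. One of the 5, Il4, averaged 0.0274 normalized counts in vehicle and 0.0355 in FGF1 mice of Day 1, too few to show a change. Il15, which signals through JAK1 and JAK3, fell by 0.73 on the log2 scale (SE 0.26, edgeR adjusted p = 0.0191), from 1.24 ± 0.497 to 0.825 ± 0.418 normalized counts.

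Of 19 further receptors in the table, 7 rose and 0 fell on Day 1, with a median log2 fold change of 0.30, beside 11.5% of all genes called higher and 8.05% lower. Il6ra, the IL-6 binding chain, rose from 6.88 ± 0.773 to 19.1 ± 3.52 normalized counts, a log2 fold change of 1.45 (SE 0.14, edgeR adjusted p = 7.40e-12), and its ranges did not overlap (highest vehicle mouse 7.84, lowest FGF1 mouse 11.3). Csf2rb, the common beta chain of the IL-3, IL-5 and GM-CSF receptors, rose by 1.52. Il4ra, Il10rb, Il13ra1 and Ifnar2, chains of receptors for IL-4, IL-10, IL-13 and type I interferon, rose by 0.96, 0.83, 0.75 and 0.63. The remaining one was Csf3r, the G-CSF receptor (0.53). Lepr, the leptin receptor, had 7.22 ± 3.64 normalized counts in vehicle and 5.42 ± 1.77 in FGF1 mice (log2 difference -0.41, edgeR adjusted p = 0.117), and on Day 5 it was at 16.0 ± 3.25 after FGF1 against 12.6 ± 2.62 (0.33, adjusted p = 0.417).

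Among 7 kinases and STATs other than Jak1, Jak2 and Stat3, Jak3, a kinase of blood cells, and Stat6, the transcription factor of IL-4 signalling, rose by 1.46 and 0.79 on the log2 scale on Day 1 (edgeR adjusted p = 4.71e-08 and 6.71e-06). Stat5b and Tyk2 had adjusted p-values under 0.05 (0.000279 and 0.000804) with log2 fold changes of 0.46 and 0.47, below the threshold. Of 17 further inhibitors 5 rose and 0 fell, again beside 11.5% and 8.05% of all genes. The 5 were the phosphatases Ptpn6 (1.47), Ptprc (1.24), Ptpn2 (0.67) and Ptpn1 (0.55), and Cish (0.70), a relative of the SOCS genes. Ptpn1 and Ptpn2 are known to dephosphorylate the kinases of the leptin and cytokine receptors. Pias1, a SUMO ligase, was 0.47 lower (adjusted p = 4.52e-05), below the fold threshold.

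Genes known as STAT3 targets moved most. Of 29 listed ones, 21 are in the table. Of these, 15 rose and 0 fell on Day 1, beside 11.5% of all genes called higher. Their median log2 fold change was 1.00, against 0.01 over all genes. Timp1, an inhibitor of matrix proteases, rose from 0.845 ± 0.123 to 159 ± 89.9 normalized counts, a log2 fold change of 7.57 (SE 0.40, edgeR adjusted p = 2.89e-20). Serpina3n, a secreted protease inhibitor, rose from 71.1 ± 5.81 to 1017 ± 162 (3.84), and Gfap, the intermediate filament of astrocytes, from 255 ± 25.7 to 1787 ± 231 (2.81). The transcription factors Junb, Myc and Cebpd rose by 2.50, 2.18 and 2.18. Many of these genes answer to other pathways as well, and several were known to change in these libraries when the list was written, so their count is not independent support for the 8 genes.

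**Figure D4:**
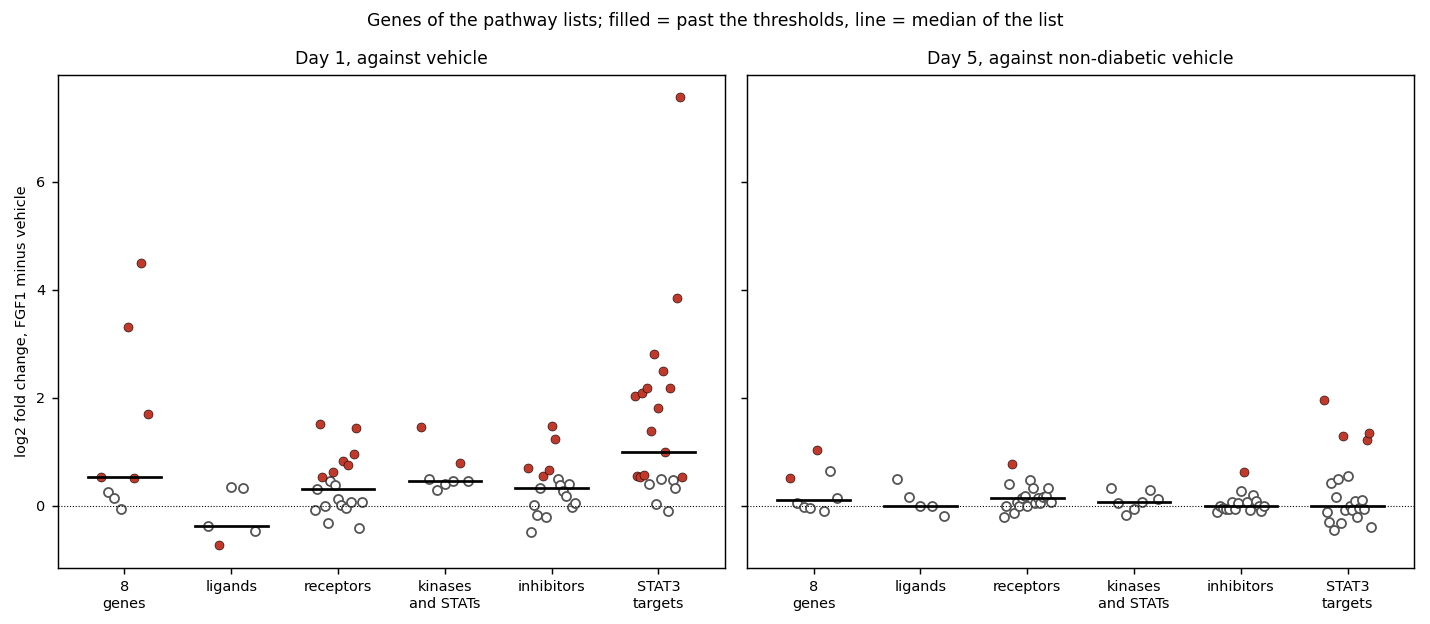
edgeR log2 fold change of the genes of each list in the table, on Day 1 (left) and on Day 5 against non-diabetic vehicle (right); filled points passed the thresholds, open points did not, and lines are list medians. On Day 1, 15 of 21 STAT3 targets and 7 of 19 further receptors are filled on the high side, against 4 and 1 on Day 5.

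On Day 5, against non-diabetic vehicle, 1 of 19 receptors, 0 of 7 kinases and STATs, 1 of 17 inhibitors and 4 of 21 STAT3 targets were called, all higher, beside 1.31% of all genes called higher. The receptor was Csf3r, at 7.20 ± 1.39 against 4.21 ± 1.57 normalized counts (0.78, edgeR adjusted p = 0.000211), and the inhibitor Ptprc, the pan-leukocyte phosphatase CD45 (0.63, adjusted p = 0.0377). The targets were A2m, a plasma protease inhibitor (1.96), Timp1 (1.34), Gfap (1.29) and Serpina3n (1.23). A2m had a similar fold change on Day 1, 2.04. Without the vehicle library with high microglia markers Csf3r stood at 0.98, Ptprc at 0.92 and Il10ra was called too (0.63), while Timp1, at 1.265, missed the threshold (adjusted p = 0.0831). Against diabetic vehicle 2 of 19 receptors, 0 of 7 kinases and STATs, 1 of 17 inhibitors and 5 of 21 targets were called, all higher, beside 2.36% of all genes. The same 6 genes were among them, with Il10ra (0.74) and Icam1 (0.91), an adhesion molecule of leukocyte traffic, in addition. On Day 42 none of the genes in these lists was called.

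Several of the receptors, kinases and phosphatases named above are chiefly genes of microglia and leukocytes, and cell type markers moved with them. Of 8 microglia markers, C1qa, Tmem119, Aif1, Csf1r and Cx3cr1 were called higher and P2ry12 lower on Day 1, beside 11.5% and 8.05% of all genes, and their summed level was 215 to 245 normalized counts in vehicle and 236 to 319 in FGF1 mice. On Day 5 the sum was 300.0 to 368 in FGF1 mice and 216 to 254 in diabetic vehicle mice, with 6 of 8 called higher beside 2.36% of all genes. Against non-diabetic vehicle mice 0 of 8 were called beside 1.31%, or 3 of 8 beside 1.49% without the library at 381. Of 9 markers of infiltrating leukocytes only Ccr2 is in the table, at 0 to 4.71 normalized counts in FGF1 and 0.246 to 0.988 in vehicle mice of Day 1, where it was called higher (log2 fold change 1.69, SE 0.54, edgeR adjusted p = 0.00991) with overlapping ranges.

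Astrocyte markers summed to 4399 to 5128 in vehicle and 4739 to 5837 in FGF1 mice of Day 1, where Gfap was called higher and Gja1 and Gjb6 lower of 8. The calls of this and the following marker lists stand beside 11.5% of all genes called higher and 8.05% lower on Day 1, and 1.31% higher on Day 5. The list's median log2 fold change was -0.36, opposite in sign to the shift of the sum, in which Gfap weighs heavily. On Day 5 they summed to 5246 to 5771 after FGF1 against 4611 to 4800 in non-diabetic vehicle mice, with Gfap and Aqp4 called higher. The 6 meningeal fibroblast markers summed to 55.4 to 344 in FGF1 and 88.9 to 163 in vehicle mice of Day 1 (2 called higher, 2 lower), and to 86.9 to 293 against 50.4 to 149 in non-diabetic vehicle mice on Day 5. On Day 5 Igf2, Lum and Slc6a13 were called higher, but only Igf2 without the library with high microglia markers (adjusted p = 0.0866 for Lum and 0.0929 for Slc6a13) or against diabetic vehicle. Endothelial markers summed to 211 to 290 in FGF1 and 217 to 330 in vehicle mice of Day 1, with Flt1 called higher and Itm2a lower of 8. The 11 hypothalamic neuron markers summed to 850 to 1247 after FGF1 and 1248 to 1551 after vehicle on Day 1, with Pomc and Gal called higher and Pmch lower. Their median log2 fold change was 0.02, so the lower sum was not shared by most of the list. The part of these cell types in the levels of Osmr, Il6st, Stat3 and Socs3 was not tested.

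Within the 10 FGF1 mice of Day 1, mice with more Stat3 had more Socs3 (Pearson r = 0.891, permutation p = 0.00049, 0.00588 adjusted over 12 such pairs; Spearman rho = 0.915, permutation p = 0.00054, 0.00648 adjusted). The r was 0.895 without the 2 mice farthest from the median of Stat3 and 0.908 without the smallest library. Stat3 also rose with the logarithm of the library's total count (r = 0.634), and the part of depth was not tested. Osmr did not follow either gene in these mice past the adjustment (r = 0.536 with Stat3 and 0.610 with Socs3, adjusted permutation p = 0.197 and 0.175). Without the 2 mice farthest from the median these r were 0.264 and -0.62, and without the smallest library 0.280 and 0.496, so neither is stable.

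On Day 5, among 9 FGF1 mice, Stat3 and Socs3 gave r = 0.566 (adjusted permutation p = 0.197), or 0.824 without the smallest library, and Stat3 and Osmr r = 0.516 (adjusted permutation p = 0.233). Osmr and Socs3 were related by r = 0.849 (adjusted permutation p = 0.0174) but by rho = 0.733 (adjusted permutation p = 0.187), and r was 0.616 without the 2 mice farthest from the median of Osmr, so the relation rests in part on those mice. The vehicle groups of Day 5, with 7 mice each, gave no pair past the adjustment. No correlation was computed in the groups of 4 or 5 mice.

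**Figure D5:**
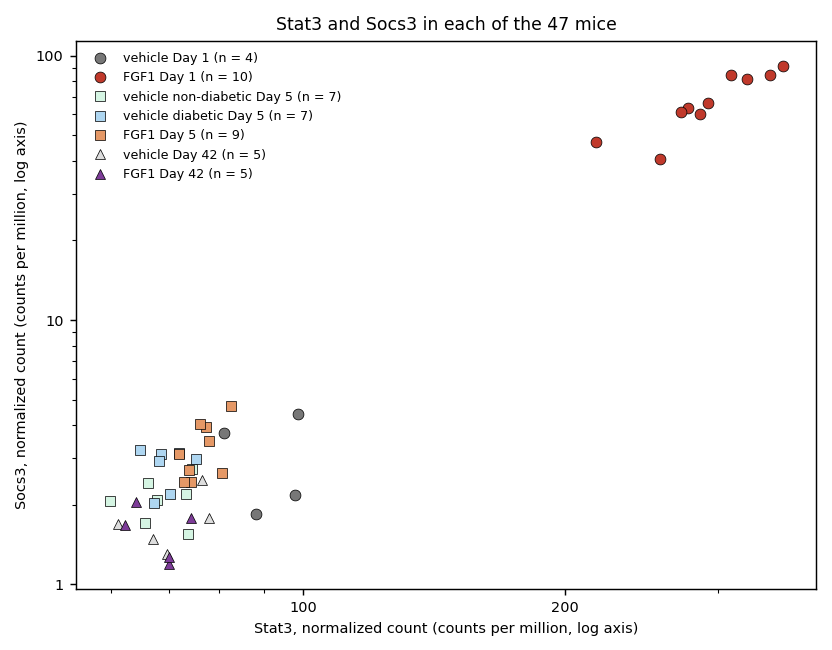
Normalized counts of Stat3 (x) and Socs3 (y), both on log axes, in each of 47 mice, by group. The 10 FGF1 mice of Day 1 form a separate cluster at 218 to 357 of Stat3 and 40.5 to 91.7 of Socs3, within which the genes rise together (r = 0.891).

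Genes whose log2 levels over all 47 libraries, after the mean of all libraries of the same day was subtracted, were most like those of the 3 strongly induced genes were also listed, out of 14123 genes with a mean of at least 1 CPM. For Stat3 these were Tnfrsf1a (r = 0.972), S1pr3, Tagln2, Timp1 and Pdlim4. For Socs3 they were Tubb6 (r = 0.973), S100a10, Cnn3, Stat3 (r = 0.957) and Tnfrsf1a. For Osmr they were Msn (r = 0.968), Cd109, Cnn3, Nfe2l2 and Capn2. These correlations cross the groups and so include the difference between FGF1 and vehicle mice on Day 1, whose part was not tested. The log2 fold changes on Day 1 of the 12 genes other than Stat3 ran from 0.83 (Capn2) to 7.57 (Timp1). Among the 8 genes themselves, r was 0.928 between Osmr and Socs3, 0.915 between Osmr and Stat3, 0.757 between Osmr and Il6st, and -0.16 between Stat3 and Lifr.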

How the data were processed

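Hypothalamic mRNA was sequenced from 47 ob/ob mice, 1 library per mouse. The authors aligned reads with STAR and deposited whole-number counts per gene, not normalized; the counting program is not given in the sources used here. The labels and methods name the build GRCh38, a human build name, for mouse reads; coordinates, exon lengths and overlaps were taken from GENCODE annotation of GRCm38, and promoter sequences from RefSeq GRCm38.p6.

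From these counts, TMM factors were computed and a model with 1 mean for each of 7 groups was fitted to all 14221 genes with edgeR 4.0.16 (R 4.3.3), which kept every gene at its low-count filter. Contrasts were tested by the quasi-likelihood F test with Benjamini-Hochberg adjustment (adjusted p under 0.05, absolute log2 fold change above 0.5). Single genes were also compared by two-sided exact permutation tests on log2(CPM + 0.5) with scipy 1.17.1, adjusted over 40 tests. The correlations used permutation tests (100000 permutations where a group had 10 mice). CPM per kb of exon was used to compare levels between genes. Replicate numbers were given in order of deposit and only name a mouse. No pair of libraries agreed within sampling noise. The lowest mean chi-square per gene for a pair in any group was 1.67. Per the labels and methods mice were housed singly, and libraries were made and sequenced at either of a pair of sites on different Illumina instruments; which library went where was not used here. The spread between mice sets the precision.

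Alternatives were DESeq2 1.42.0, its size factors, limma-voom (limma 3.58.1), no low-count filter, at least 10 counts in every library (10973 genes), each day alone, merged Day 5 vehicle groups, no fold threshold, other pseudocounts (0.1 and 2), and libraries left out. The fit without vehicle non-diabetic Day 5 replicate 2, the differences between days with diabetic vehicle as the Day 5 control, and the correlations without the smallest library were chosen after seeing the data. The programs were tested on simulated data. The genes and the gene lists were chosen with earlier results of these data known. Named genes are the 8 genes and Lepr, up to 6 genes of each list with the largest log2 fold change among those called on Day 1 and on Day 5, and the 5 genes most like Stat3, Socs3 and Osmr. Csf3r on Day 1, Stat5a, Stat5b, Tyk2, Pias1, Il4, Il10ra, Icam1 and the cell type markers were named after their values were seen. The other listed genes entered the counts only, and their values are not reported here.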

Additional observations from a re-analysis of the deposited data

Results flagged for a closer look

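Of 56 combinations of gene and group, 3 held a mouse that stood farther from the rest than Dixon's 95% limit allows, where chance gives about 1 in 20. All 3 lie in the vehicle mice labelled non-diabetic on Day 5. Lifr was lowest in replicate 2, at 96.5 normalized counts, which is also the library with the high microglia markers. Jak2 was highest in replicate 6, at 94.0, and Socs2 lowest in replicate 7, at 7.34.

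The FGF1 effect differed between days by the edgeR test of the difference itself, at both the adjusted p and the fold threshold, for 3 genes. From Day 1 to Day 5 the log2 effect changed by -3.85 for Socs3, -2.27 for Osmr and -1.54 for Stat3. From Day 5 to Day 42 it changed by -1.02 for Osmr, or by -0.74 (adjusted p = 0.120) with diabetic in place of non-diabetic vehicle as the Day 5 control. From Day 1 to Day 42 it changed by -4.65 for Socs3, -3.29 for Osmr and -1.74 for Stat3. Each day had its own preparation, so its part in these differences cannot be told apart from that of day.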

How the results depend on the processing

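Of 968 values recomputed under the alternatives, 940 kept their direction and their side of the threshold, counting as kept 49 changes of sign of small differences that were called in neither fit (-0.22 to 0.10 on the log2 scale), and none that was called changed sign. The calls of Socs3, Osmr and Stat3 on Day 1 and of Osmr and Il6st on Day 5 against either vehicle group held under every alternative run for them. On Day 1 the number of genes called was 3 under DESeq2 and 3 with its size factors, against 5, since Il6st (0.49) and Socs2 (0.47) then fell below the fold threshold. For the change of effect from Day 5 to Day 42 the number called was 2 without a fold threshold, 0 without the 2 deep FGF1 libraries of Day 5, 0 with diabetic vehicle as the Day 5 control, and 0 to 2 with 1 mouse left out, against 1. For the change from Day 1 to Day 42 it was 3 to 5 with 1 mouse left out, against 3, the 5 without FGF1 Day 42 replicate 4. The causes of these changes, other than the fold threshold, were not tested. With each day fitted alone the changes between days cannot be had. No paired analysis was possible because the labels give no replicate numbers that groups share. Outside FGF1 Day 1, Socs3 rested on only 13 to 160 raw counts a library. Mice left out of FGF1 Day 1 and of the Day 5 groups were only the libraries named.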
